A study of Mus with 8 samples.

Results

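The genes described here are the mouse genes for semaphorins, plexins, neuropilins, ephrins and Eph receptors, chosen by symbol alone (Sema, Plxn, Nrp1 and Nrp2, Efna, Efnb, Epha and Ephb). The rule found 53 of the 24013 genes in the count table, of which 31 belong to the semaphorin system (7 secreted class 3 semaphorins, 13 membrane semaphorins, 2 neuropilins and 9 plexins) and 22 to the Eph system (9 EphA receptors, 5 EphB receptors, 5 ephrin-A and 3 ephrin-B ligands). RNA-seq had been done on 3T3-L1 cells, an embryonic mouse fibroblast line that is committed to become adipocytes, to ask how lowering Prep1 (gene Pknox1), a homeodomain transcription factor, bears on early adipogenesis. C cells carried a lentivirus with a scrambled control shRNA and P cells a lentivirus with an shRNA against Prep1. Infected cells had been selected for the vector, so that both lines carry vector and selection alike. Whether the replicas of a line came from 1 infection is not given in the sources used here. Each was sampled before induction (day −2, no inducer) and at day 1, that is 24 hours after the inducing cocktail of 1 µM dexamethasone, 0.5 mM IBMX and 1 µg/ml insulin had been added, with 2 biological replicas in each of the 4 conditions. Total counts ran from 20428816 to 27614353 per library.

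Semaphorins are guidance signals. Class 3 members are secreted and bind a neuropilin held in a complex with a plexin, which carries the signal inward, while most membrane semaphorins bind plexins directly. Eph receptors are receptor tyrosine kinases that meet ephrins on a neighbouring cell, with ephrin-A ligands held by a lipid anchor and ephrin-B ligands spanning the membrane, so that both cells can receive a signal. Both systems are best known from growing axons and blood vessels, and they also act on adhesion and on the actin skeleton of fibroblasts.

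Levels are given as CPM, which are counts relative to a fixed library size after scaling by edgeR's TMM factors. A ratio is reported as its log2 value from edgeR's quasi-likelihood fit over all 8 libraries. Its standard error (SE) was derived by dividing the size of the log2 ratio by the square root of the F statistic of its test. A gene was called changed when its Benjamini-Hochberg adjusted p over 13339 tested genes was under 0.1 and its ratio was above 2 or below 0.5. CPM does not correct for transcript length, so levels were compared between libraries and not between genes. In these bulk libraries, fewer cells that make an RNA and less RNA per cell cannot be told apart.

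Prep1 RNA was lower in P cells on both days, but by less than the ratio threshold. It stood at 27.3 ± 1.16 CPM in C cells and 17.8 ± 0.739 CPM in P cells at day −2, and at 37.3 ± 1.11 and 23.7 ± 0.125 CPM at day 1 (SD, n = 2). The log2 ratios of P to C were −0.62 (SE 0.14, adjusted p = 0.0558, edgeR with Benjamini-Hochberg) and −0.65 (SE 0.14, adjusted p = 0.0575). Fibroblast and preadipocyte markers were at hand in every condition, with 9 or 10 of 10 above 1 CPM in both replicas, and their levels moved as well. Their sum was 16127 to 17331 CPM in C cells and 22164 to 78403 CPM in P cells at day −2, and 20584 to 26005 CPM and 17749 to 17758 CPM at day 1, with Col1a1, a collagen chain, at 23560 CPM in replica 1 and 4882 CPM in replica 2 of P cells at day −2. Of the 10, 5 were called for induction in C cells, 7 in P cells and 3 between the lines at day −2, and their part in the results below was not tested. The summed level of 8 endothelial markers stayed between 1.17 and 2.79 CPM and that of 5 glial markers between 0.692 and 2.08 CPM, with none above 1 CPM in both replicas of a condition. Of 6 neuronal markers 1 passed that level, and the sum lay between 1.31 and 8.41 CPM. Sums for 7 macrophage and leukocyte markers ran from 8.63 to 23.7 CPM, with 2 to 4 of them above 1 CPM, and those for 5 epithelial markers from 0.187 to 3.43 CPM. Of the 6 adipocyte markers, induction raised 2 and lowered 1 in C cells and raised 6 in P cells. The knockdown line had 4 called above C cells before induction and 5 after it. The summed level of the 6 was 79.9 to 80.2 CPM in C cells and 229 to 243 CPM in P cells at day −2, and 169 to 170 CPM in C cells and 565 to 609 CPM in P cells at day 1. Most of that sum was Lpl, with 57.7 to 58.6 CPM in C cells at day −2 and 127 to 133 CPM at day 1. In the same libraries Fabp4 went from 2.07 and 2.35 CPM to 0.789 and 1.39 CPM. The part of the adipocyte markers in the results below was not tested.

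Replica 1 of P cells at day −2 stood apart from its partner. Over 5600 abundant genes the log2 difference between replicas had an SD of 0.795 in P cells at day −2, against 0.121 to 0.261 in the other conditions. Of the 35 semaphorin, plexin and Eph system genes with a mean above 1 CPM there, 9 differed more than 2-fold between the replicas, compared with 0 in each other condition (of 31, 32 and 36 genes). Sema3a, at 12.4 and 39.7 CPM, and Epha4, at 12.5 and 39.6 CPM, were among them. Leaving out replica 1 or replica 2 of that condition changed how many of these genes were called, from 5 to 8 or 15 between the lines at day −2, from 13 to 12 or 23 for induction in P cells, and from 5 to 20 or 25 for the difference between the responses. Individual calls that were lost without 1 of those libraries are named with the gene.

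Of the 53 genes, 45 had enough reads to be tested. The other 8 (Epha1, Epha5, Epha6, Epha10, Ephb1, Plxnb3, Sema3e and Sema4f) had at most 16 counts in any library. A further 8 were tested on fewer than 100 counts over all libraries, and 1 of them, Sema4d, was called.

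The first question is which of these genes changed from day −2 to day 1, a change called induction here. The days differ in the cocktail, in time in culture and, by the study's methods, in medium and serum. Without an uninduced group at day 1 these cannot be told apart. In C cells 8 of 45 tested genes rose (17.8%) and 8 fell (17.8%), where 10.7% of all tested genes rose and 9.68% fell. In P cells 8 rose (17.8%) and 5 fell (11.1%), against 7.65% and 10.4% of all tested genes. The second question is how P and C cells differed at each day. With 1 shRNA, lower Prep1, other effects of that shRNA and a difference between the lines cannot be told apart. Before induction 1 gene was higher in P than in C cells (2.22%) and 4 were lower (8.89%), beside 4.83% and 2.15% of all tested genes. At day 1, 5 were higher (11.1%) and 2 lower (4.44%), beside 1.83% and 2.23%. For 5 of 45 genes (11.1%) the lines differed in their response to induction by the interaction term of the same model, beside 2.37% of all tested genes. The median log2 ratio over the 45 genes was −0.29 for induction in C cells and −0.33 in P cells, 0.14 between the lines (P to C) at day −2 and −0.02 at day 1, and over all tested genes these medians were −0.01, 0.02, 0.01 and 0.01. With Epha3, which had 0 counts in C cells at day −2, set at its lower bound, the medians of −0.29 and 0.14 stayed as they were. Scaling by library totals in place of TMM put the median log2 ratio of all tested genes at −0.11, 0.19, −0.18 and 0.11 in the 4 comparisons and split the members called into 7 higher and 8 lower for induction of C cells, 10 and 3 for that of P cells, 1 and 6 between the lines at day −2 and 5 and 2 at day 1. In all, 23 genes were called in at least 1 of the 4 comparisons, 13 of the semaphorin system and 10 of the Eph system, which is 51.1% of the 45 beside 30.9% of all tested genes.

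**Figure D1:**
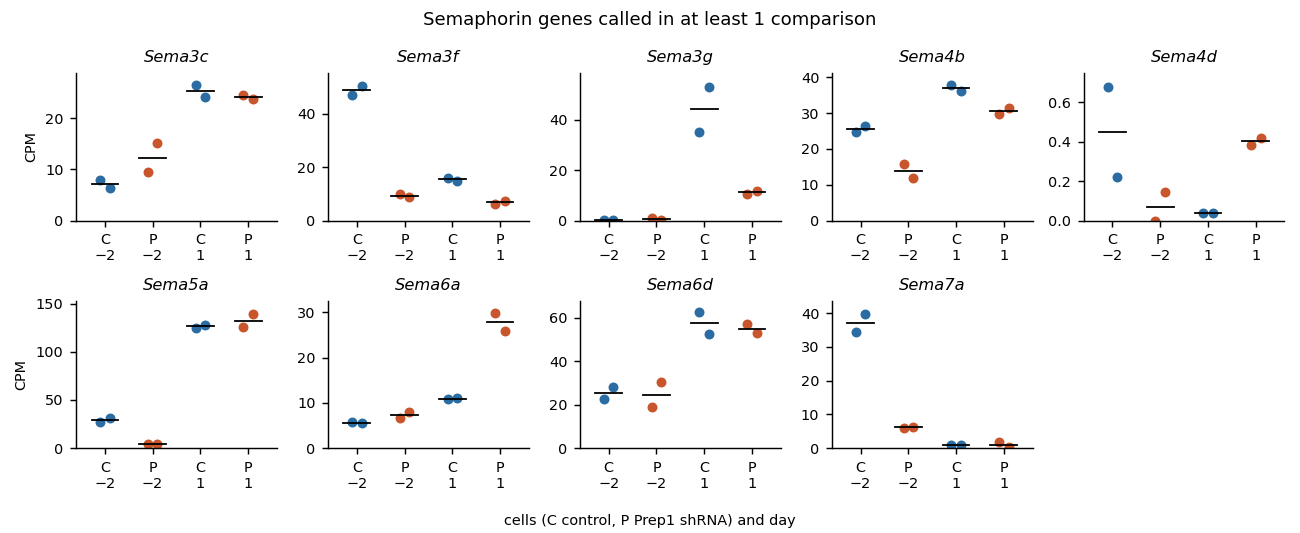
CPM (linear axis from 0) of each semaphorin gene called in at least 1 comparison, in C cells (blue) and P cells (orange) at day −2 and day 1, with a point for each replica and a bar for the mean of 2. Sema5a sat at 27.3 and 31.4 CPM in C cells and 4.10 and 4.49 CPM in P cells at day −2, and at 124 to 139 CPM in all 4 libraries at day 1.

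Among the secreted class 3 semaphorins, Sema3f (NCBI gene 20350), a repulsive ligand that binds neuropilin-2, was lower in P cells on both days. C cells had 47.1 and 50.3 CPM at day −2, where P cells had 9.96 and 8.67 CPM, a log2 ratio of −2.39 (SE 0.17, edgeR adjusted p = 0.00162, Benjamini-Hochberg). At day 1 the values were 15.9 and 14.9 CPM in C cells and 6.32 and 7.28 CPM in P cells, a log2 ratio of −1.18 (SE 0.17, edgeR adjusted p = 0.0165). Induction lowered Sema3f in C cells, by a log2 ratio of −1.66 (SE 0.17, edgeR adjusted p = 0.000869), and no P library reached the level of the induced C libraries. In P cells the log2 ratio for induction was −0.45 (SE 0.17, edgeR adjusted p = 0.104), and the difference between the responses was 1.21 (SE 0.24, edgeR adjusted p = 0.0774).

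Sema3g (NCBI gene 218877), another secreted ligand of this class, went from near the counting floor to a clear signal on induction in both lines. The C libraries of day −2 held 4 and 2 counts and the P libraries 16 and 7. At day 1 the levels were 35.2 and 53.0 CPM in C cells and 10.5 and 11.8 CPM in P cells, so that the lower C library stood above both P libraries. The ratio of day 1 to day −2 was 350 in C cells (95% exact counting interval 161 to 955) and 22.6 in P cells (14.9 to 36.0), intervals that cover counting error alone. The fitted log2 ratios were 8.40 (SE 0.60, edgeR adjusted p = 0.000243) and 4.42 (SE 0.50, edgeR adjusted p = 0.00173), the latter 5.44 without replica 1 and 3.71 without replica 2 of P cells at day −2. The rise was smaller in P cells, with a difference of −3.98 on the log2 scale (SE 0.83, edgeR adjusted p = 0.0923), and at day 1 P cells were lower by a log2 ratio of −1.99 (SE 0.39, edgeR adjusted p = 0.0453). At day −2 the ratio of P to C was 3.90 with a counting interval of 1.55 to 11.7, which did not pass the test (edgeR adjusted p = 0.16). Without replica 1 of P cells at day −2 the difference between the responses was −2.98 and was not called.

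Sema3c (NCBI gene 20348), a class 3 ligand that binds both neuropilins, rose on induction in C cells. It went from 7.93 and 6.34 CPM to 26.4 and 24.2 CPM, a log2 ratio of 1.82 (SE 0.26, edgeR adjusted p = 0.00346). P cells started at 9.43 and 15.2 CPM, above C cells in both replicas, and ended at 24.4 and 23.7 CPM. Their log2 ratio of 0.96 (SE 0.25, edgeR adjusted p = 0.0388) was under the ratio threshold, and the test of the difference between the responses did not pass (edgeR adjusted p = 0.343). Sema3a, the founding repellent of the class, lay between 12.4 and 39.7 CPM and was called in none of the comparisons. The other tested members, Sema3b and Sema3d, stayed under 1 CPM in every library.

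Of the membrane semaphorins, Sema5a (NCBI gene 20356), which carries thrombospondin repeats and signals through plexins, gave the difference in response with the lowest adjusted p of the set. At day −2 it was at 27.3 and 31.4 CPM in C cells and 4.10 and 4.49 CPM in P cells, and the log2 ratio was −2.77 (SE 0.16, edgeR adjusted p = 0.00108). At day 1 it was at 124 and 128 CPM in C cells and 126 and 139 CPM in P cells. There the log2 ratio of P to C was 0.07 (SE 0.14, edgeR adjusted p = 0.912), and the ranges of the lines overlapped. Sema5a therefore rose from unequal starts to the same range, by log2 ratios of 2.11 in C cells (SE 0.15, edgeR adjusted p = 0.000237) and 4.94 in P cells (SE 0.17, edgeR adjusted p = 8.36e-05), with a difference of 2.83 (SE 0.21, edgeR adjusted p = 0.00399). Each of these 4 calls was kept under every alternative run on it, including each library left out.

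Sema7a (NCBI gene 20361), a lipid-anchored semaphorin that binds integrins and plexin C1, fell on induction in both lines. C cells had 34.4 and 39.6 CPM before induction and 0.829 and 0.836 CPM after it, a log2 ratio of −5.46 (SE 0.73, edgeR adjusted p = 0.00259). P cells were already lower before induction, with 5.96 and 6.28 CPM and a log2 ratio to C of −2.59 (SE 0.61, edgeR adjusted p = 0.0619). After induction the P replicas stood at 1.79 and 0.187 CPM, from 42 and 4 counts, on either side of both C replicas. The fall in P cells had a log2 ratio of −2.60 (SE 0.68, edgeR adjusted p = 0.0378), which was −4.99 without replica 1 and −1.76 without replica 2 of P cells at day 1 and was not called in a fit of the P libraries alone, and the test of the difference between the responses did not pass (2.86, SE 0.96, edgeR adjusted p = 0.261). The difference at day −2 was no longer called when any 1 of the 4 C libraries was left out, with log2 ratios of −2.69 to −2.49 over the libraries left out.

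Sema6a, Sema6d and Sema4b, transmembrane semaphorins of classes that bind plexins, were higher after induction. Sema6a (NCBI gene 20358) was at 5.74 and 5.49 CPM in C cells and 6.76 and 7.95 CPM in P cells at day −2, and at 10.9 and 11.0 CPM in C cells and 29.8 and 26.0 CPM in P cells at day 1. It rose in P cells by a log2 ratio of 1.92 (SE 0.18, edgeR adjusted p = 0.000904), and both P libraries were above both C libraries at day 1 with a log2 ratio of 1.35 (SE 0.18, edgeR adjusted p = 0.0119). In C cells the ratio was under the threshold (log2 0.96, SE 0.18, edgeR adjusted p = 0.00954), and the difference between the responses did not pass (edgeR adjusted p = 0.159). Sema6d (NCBI gene 214968) went from 22.5 and 28.3 CPM to 62.5 and 52.5 CPM in C cells and from 18.9 and 30.3 CPM to 57.1 and 52.9 CPM in P cells. The log2 ratios were 1.18 (SE 0.25, edgeR adjusted p = 0.016) and 1.16 (SE 0.25, edgeR adjusted p = 0.0208), and the lines overlapped on both days. The call in C cells was lost without replica 1 of either day. Without replica 1 of P cells at day −2 the ratio in P cells was 0.85 on the log2 scale and was not called, nor was it without either P library of day 1. Sema4b (NCBI gene 20352) rose in P cells, from 15.9 and 11.8 CPM to 29.7 and 31.5 CPM (log2 1.15, SE 0.18, edgeR adjusted p = 0.00699), a call that ended without replica 2 of P cells at day −2 (log2 0.95). C cells went from 24.7 and 26.3 CPM to 37.9 and 36.3 CPM, a ratio under the threshold.

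Sema4d, best known as a ligand of plexin B1, was called lower on induction in C cells on very few reads. Counts were 17 and 5 before and 1 and 1 after, and the ratio of 0.0859 had a counting interval of 0.00979 to 0.349 (edgeR adjusted p = 0.0679). The P libraries held 0 and 4 counts before and 9 and 9 after. Leaving out replica 2 of C cells at day −2, or any day 1 library, ended the call. Among the membrane semaphorins without a call, Sema4c lay at 43.8 to 95.6 CPM, Sema4g and Sema6c lay between 2.57 and 7.72 CPM, and Sema4a, Sema5b and Sema6b remained under 1 CPM in every library.

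**Figure D2:**
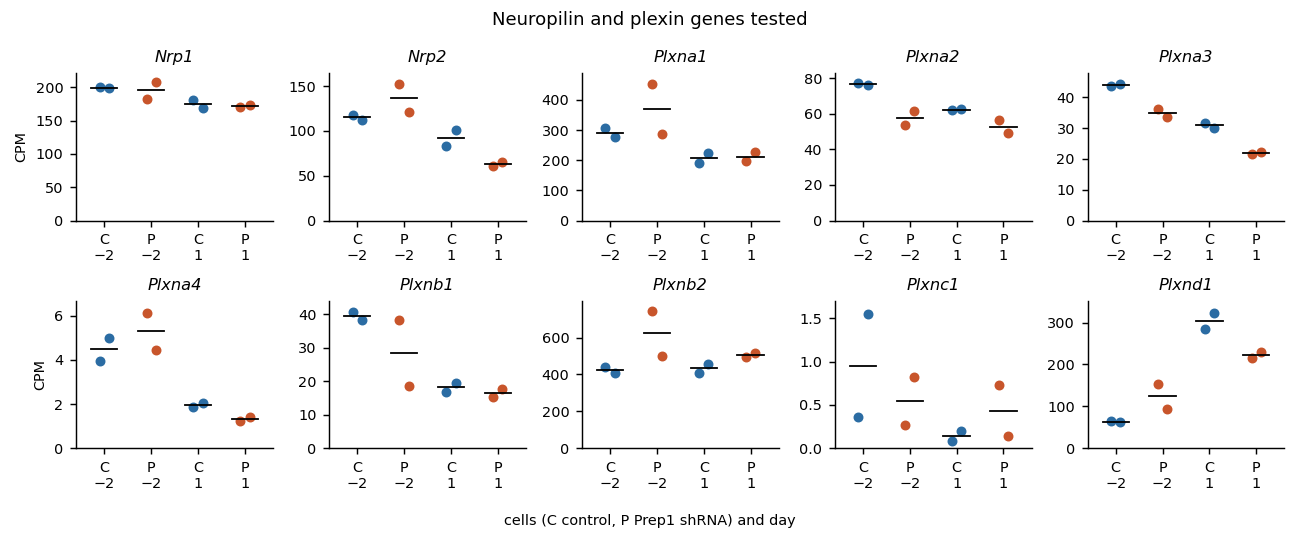
CPM (linear axis from 0) of the 2 neuropilin genes and the 8 tested plexin genes in C cells (blue) and P cells (orange) at day −2 and day 1, with a point for each replica and a bar for the mean of 2. Plxnd1 was at 216 CPM or more in all day 1 libraries and at 62.5 to 152 CPM at day −2, while Nrp1 kept between 169 and 209 CPM throughout.

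Among the receptors of the semaphorin system, induction changed 3 of 8 tested plexins in C cells (37.5%, beside 20.4% of all tested genes). In P cells it changed 1 of 8 plexins (12.5%) and 1 of 2 neuropilins (50%), beside 18% of all tested genes. In edgeR's fit 0 of the 8 tested plexins and 0 of the 2 neuropilins were called in P against C cells on either day, as in DESeq2, with 4 and 1 plexins and 0 and 1 neuropilins at an unadjusted p under 0.05 at day −2 and day 1. Of all tested genes 6.98% and 4.06% were called on these days, and for so few receptors a count of 0 lies near that share. Plxnd1 (NCBI gene 67784), the receptor for Sema3e in vessels, rose on induction in C cells, from 63.6 and 62.5 CPM to 285 and 322 CPM (log2 2.27, SE 0.24, edgeR adjusted p = 0.00103). P cells went from 152 and 94.2 CPM to 216 and 229 CPM, a ratio under the threshold (log2 0.85, SE 0.23, edgeR adjusted p = 0.0415). Both P libraries were thus above both C libraries before induction and below them after it, but neither difference was called, and the difference between the responses did not pass (−1.41, SE 0.33, edgeR adjusted p = 0.119).

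Plxna4 (NCBI gene 243743), a plexin that works with neuropilins as receptor for class 3 semaphorins, fell in both lines. It went from 3.95 and 5.01 CPM to 1.85 and 2.03 CPM in C cells (log2 −1.20, SE 0.28, edgeR adjusted p = 0.0219) and from 6.12 and 4.46 CPM to 1.24 and 1.40 CPM in P cells (log2 −2.00, SE 0.29, edgeR adjusted p = 0.0048). The call in C cells was lost without replica 2 of day −2 or either replica of day 1. Plxnb1 (NCBI gene 235611), the receptor for Sema4d, fell in C cells from 40.7 and 38.4 CPM to 16.8 and 19.5 CPM (log2 −1.12, SE 0.32, edgeR adjusted p = 0.0439). The call for Plxnb1 was lost when any 1 of the 4 C libraries was left out, with log2 ratios of −1.22 to −0.99 over the libraries left out. In P cells Plxnb1 was at 38.2 and 18.6 CPM before induction and 15.3 and 17.7 CPM after it, and the ratio did not pass the test (edgeR adjusted p = 0.132).

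Nrp2 (NCBI gene 18187), the co-receptor that Sema3f uses, fell in P cells from 152 and 121 CPM to 60.8 and 65.7 CPM (log2 −1.11, SE 0.18, edgeR adjusted p = 0.00648). Without replica 1 of P cells at day −2 this became −0.94 on the log2 scale and was not called. In C cells Nrp2 went from 118 and 112 CPM to 82.6 and 101 CPM (log2 −0.33, edgeR adjusted p = 0.209). Nrp1, the partner co-receptor, lay between 169 and 209 CPM in all 8 libraries, with log2 ratios between −0.19 and −0.02 in the 4 comparisons. Plxna1 at 190 to 452 CPM, Plxnb2 at 405 to 745 CPM, Plxna2 at 49.3 to 77.3 CPM and Plxna3 at 21.5 to 44.4 CPM were not called. Plxna3 was lower after induction in both lines at an adjusted p that passed (edgeR adjusted p = 0.0341 and 0.0161), with ratios of 0.702 and 0.628 that did not. Plxnc1, the receptor for Sema7a, had at most 1.55 CPM.

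**Figure D3:**
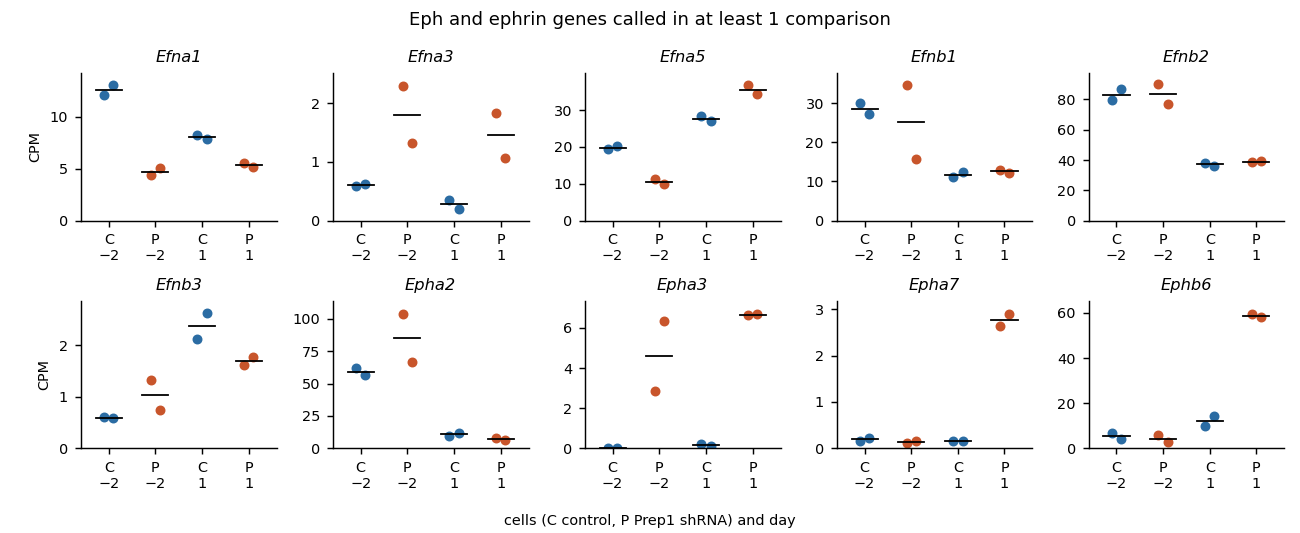
CPM (linear axis from 0) of each Eph and ephrin gene called in at least 1 comparison, in C cells (blue) and P cells (orange) at day −2 and day 1, with a point for each replica and a bar for the mean of 2. Epha3 was at 2.88 CPM or more in every P library and at 0.197 CPM or less in every C library, and Epha2 was at 56.4 CPM or more before induction and at 11.8 CPM or less after it.

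In the Eph system, Epha3 (NCBI gene 13837), a receptor for ephrin-A ligands, was nearly absent from C cells. The C libraries held 0 and 0 counts at day −2 and 5 and 2 counts at day 1, and the P libraries held 54 and 178 counts at day −2 and 155 and 143 at day 1. Against a floor of 3 counts in the C library where that floor is highest, P cells were at least 34.7-fold higher at day −2 by the mean of both P libraries, and at least 21.6-fold by the lower of them (edgeR adjusted p = 0.00628). At day 1 the ratio was 47.9, with a 95% exact counting interval of 23.0 to 120 (log2 5.53, SE 0.62, edgeR adjusted p = 0.0115). This call was lost without any 1 of the 4 libraries of that day, with log2 ratios of 5.02 to 6.26 over the libraries left out. The few counts that appeared in C cells at day 1 were also called as a rise (edgeR adjusted p = 0.0777), but their mean set no more than a 1.04-fold lower bound and the library with 2 counts none above 1, and the call was lost without any 1 C library or either P library of day 1. Within P cells the level was 2.88 and 6.35 CPM before and 6.62 and 6.68 CPM after induction, which did not pass the test (edgeR adjusted p = 0.44). The difference between P and C cells at day −2 was not called in a fit of those 4 libraries alone.

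Epha7 (NCBI gene 13841), a further receptor of the A class, appeared in P cells after induction. It had 2 to 5 counts in each library at day −2, 4 and 4 in induced C cells, and 62 and 62 in induced P cells. The rise in P cells was 21.6-fold, with a counting interval of 9.64 to 59.9 (log2 4.39, SE 0.47, edgeR adjusted p = 0.00146), and P cells were 17.4-fold above C cells at day 1, with an interval of 8.59 to 41.3 (log2 4.08, SE 0.45, edgeR adjusted p = 0.00691). The responses differed by 4.64 on the log2 scale (SE 0.71, edgeR adjusted p = 0.0388). Leaving out replica 1 of C cells at day 1 kept the day 1 call, and leaving out any other day 1 library ended it.

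Epha2 (NCBI gene 13836), an Eph receptor of epithelia and fibroblasts, fell in both lines. C cells went from 61.9 and 56.4 CPM to 9.63 and 11.8 CPM (log2 −2.46, SE 0.25, edgeR adjusted p = 0.000886), and P cells from 104 and 66.4 CPM to 7.44 and 6.63 CPM (log2 −3.59, SE 0.26, edgeR adjusted p = 0.000379). P libraries lay above C libraries before induction and below them after it, with neither difference called and the difference in response at −1.13 (SE 0.34, edgeR adjusted p = 0.216). Epha4, which binds ephrins of both classes, was at 12.5 to 43.1 CPM with a spread in P cells at day −2 that covers nearly all of that range, and was not called. Epha8 had at most 0.999 CPM.

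Ephb6 (NCBI gene 13848), an EphB member without kinase activity, rose on induction in both lines. Its level went from 6.65 and 3.90 CPM to 9.98 and 14.2 CPM in C cells (log2 1.19, SE 0.41, edgeR adjusted p = 0.0733) and from 5.80 and 2.68 CPM to 59.5 and 58.3 CPM in P cells (log2 3.81, SE 0.44, edgeR adjusted p = 0.00196, and 4.45 without replica 1 of P cells at day −2). At day −2 the lines overlapped. At day 1 P cells were higher by a log2 ratio of 2.28 (SE 0.41, edgeR adjusted p = 0.0329), while the difference between the responses, 2.62, missed the threshold (SE 0.58, edgeR adjusted p = 0.109). The rise in C cells was lost without any 1 C library or P library of day 1, over which its log2 ratio ran from 0.86 to 1.64. The other tested EphB receptors, Ephb2 at 23.8 to 38.2 CPM, Ephb3 at 27.3 to 63.3 CPM and Ephb4 at 102 to 209 CPM, were not called.

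Ephrin-A ligands gave calls in P cells. Efna5 (NCBI gene 13640), which binds EphA receptors, rose in P cells from 11.2 and 9.95 CPM to 36.8 and 34.4 CPM (log2 1.75, SE 0.15, edgeR adjusted p = 0.000756). In C cells it went from 19.4 and 20.1 CPM to 28.3 and 27.1 CPM, a ratio under the threshold (log2 0.49, SE 0.15, edgeR adjusted p = 0.0533). The responses differed by 1.27 (SE 0.21, edgeR adjusted p = 0.0481), with P libraries below C libraries at day −2 (log2 −0.91, SE 0.15, edgeR adjusted p = 0.0201, under the ratio threshold) and above them at day 1. Efna1 (NCBI gene 13636), a ligand of Epha2, was lower in P cells at day −2, at 4.37 and 5.07 CPM against 12.1 and 13.1 CPM (log2 −1.41, SE 0.19, edgeR adjusted p = 0.00925). At day 1 it was at 5.51 and 5.18 CPM in P cells and 8.25 and 7.84 CPM in C cells, still without overlap, and not called (edgeR adjusted p = 0.165). The call at day −2 was lost without replica 2 of C cells at that day and in a fit of those 4 libraries alone.

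Efna3 (NCBI gene 13638), a ligand of low level here, was higher in P cells at day 1, with 43 and 23 counts against 9 and 5 (log2 2.37, SE 0.55, edgeR adjusted p = 0.0718). At day −2 it had 43 and 37 counts in P cells and 15 and 14 in C cells, again without overlap, and the ratio did not pass (log2 1.55, SE 0.51, edgeR adjusted p = 0.127). Efna2, at 0.637 to 1.76 CPM, and Efna4, at 11.8 to 23.9 CPM, were not called.

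The ephrin-B ligands, which span the membrane, changed with induction. Efnb2 (NCBI gene 13642), the arterial ephrin, fell in both lines by like amounts, from 79.9 and 86.6 CPM to 38.4 and 36.1 CPM in C cells (log2 −1.16, SE 0.15, edgeR adjusted p = 0.00204) and from 90.0 and 77.1 CPM to 38.4 and 39.6 CPM in P cells (log2 −1.10, SE 0.15, edgeR adjusted p = 0.00323). Without replica 1 of P cells at day −2 the latter was −0.99, just short of the ratio threshold. Efnb1 (NCBI gene 13641), also a ligand of EphB receptors, fell in C cells from 30.1 and 27.2 CPM to 11.1 and 12.4 CPM (log2 −1.29, SE 0.35, edgeR adjusted p = 0.0353), and in P cells it went from 34.7 and 15.8 CPM to 13.0 and 12.2 CPM (edgeR adjusted p = 0.0839), a ratio of 0.501. Efnb3 (NCBI gene 13643), known as a midline signal in the nervous system, rose in C cells from 15 and 13 counts to 54 and 66 counts (log2 2.01, SE 0.40, edgeR adjusted p = 0.0124). P cells went from 25 and 21 counts to 38 and 38 counts, which did not pass (log2 0.72, edgeR adjusted p = 0.22). The call for Efnb1 in C cells was lost without any 1 C library, and that for Efnb3 without either C library of day −2.

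**Figure D4:**
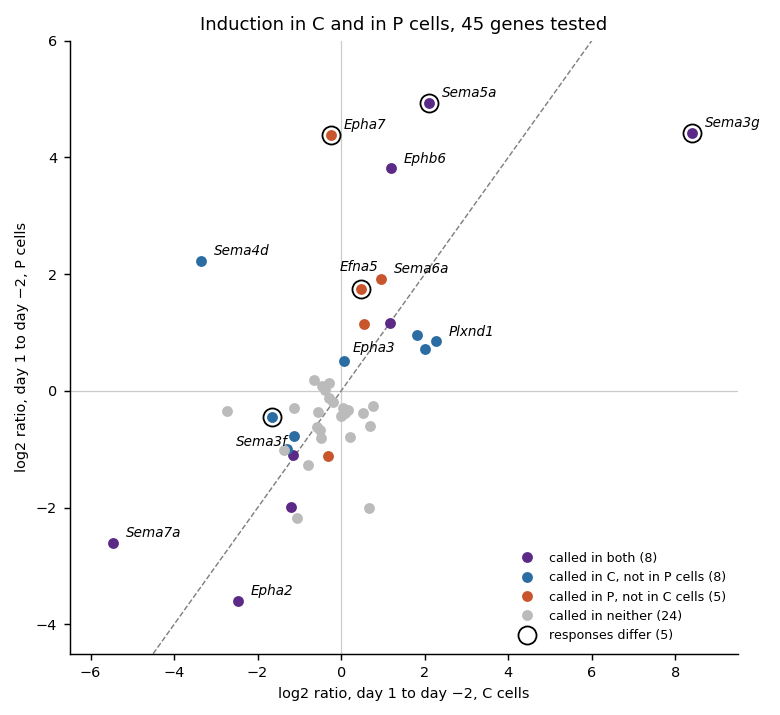
Log2 ratio of day 1 to day −2 in C cells (x) and P cells (y) for the 45 tested genes, coloured by the line in which the gene was called, with circles around the 5 genes whose responses differed by the interaction term and a dashed line for equal response. Epha3 is drawn at its lower bound in C cells. The 8 genes called in both lines moved in the same direction in each, as did 1325 of all tested genes, where 16 moved in opposite directions.

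Set side by side, the responses of the lines were alike in direction for the genes called in both. These 8 genes were Ephb6, Sema3g, Sema5a and Sema6d, which rose, and Efnb2, Epha2, Plxna4 and Sema7a, which fell. The same held over all tested genes, where 1325 called in both lines moved in the same direction and 16 in opposite directions. Calls in C cells alone numbered 8 and calls in P cells alone 5 of the 45, beside 1382 and 1065 of 13339 tested genes. Among those 8 and 5 genes, the difference in response was itself called only for Sema3f, Efna5 and Epha7. Across the 45 genes the log2 ratios in C and P cells, which share no library, had a Pearson r of 0.566 and a Spearman rho of 0.602, and across all tested genes of 0.611 and 0.552. These are correlations across genes, which are not independent replicates. By DESeq2 11 of the 45 responses differed, beside 6.97% of all tested genes.

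**Figure D5:**
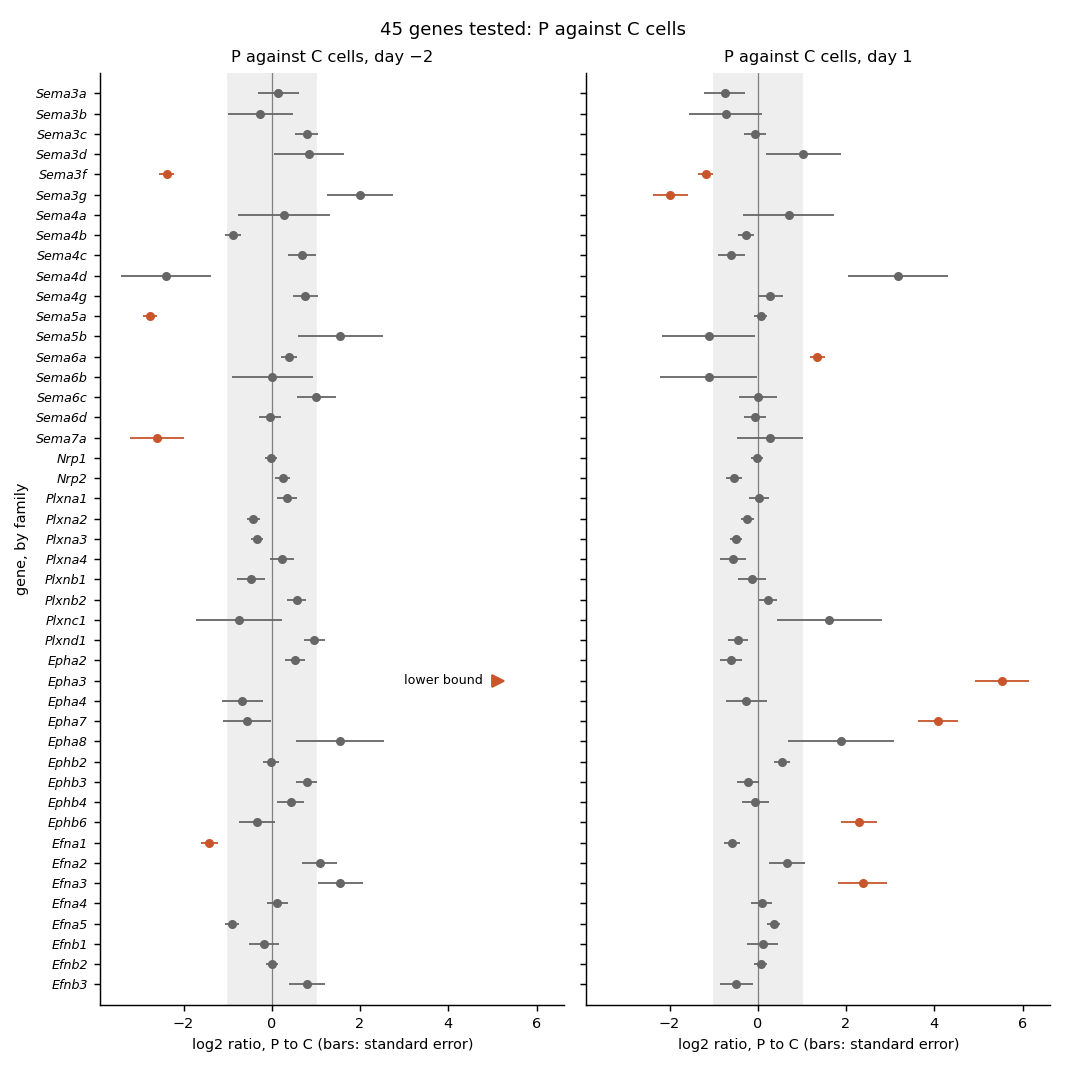
Log2 ratio, P over C, at day −2 (left) and day 1 (right) for the 45 tested genes, ordered by family, with bars for the standard error, orange for called genes and a grey band for ratios between 0.5 and 2. The triangle is the lower bound for Epha3 at day −2 from the mean of the P libraries, where C cells had 0 counts. Sema3f lay left of the band and Epha3 right of it on both days.

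Between P and C cells, 10 genes were called on at least 1 day, and Sema3f and Epha3 on both. At day −2 and day 1 the shares were 11.1% and 15.6% of the 45, beside 6.98% and 4.06% of all tested genes. The shares of all tested genes called on either day or on both were not counted. At day −2 the 4 lower genes were Efna1, Sema3f, Sema5a and Sema7a. At day 1 the 5 higher ones were Efna3, Epha3, Epha7, Ephb6 and Sema6a, of which 4 belong to the Eph system. The higher calls made up 23.5% of 17 tested Eph system genes and 3.57% of 28 tested semaphorin system genes. Epha3 and Epha7 had at most 5 counts in any C library and had enough reads to be tested only through P libraries. The share of the Eph system therefore rests in part on the filter. Of all tested genes 1.83% were higher. The day 1 calls rested on all 4 libraries of that day. With 1 of them left out, 1 gene (Epha7, without replica 1 of C cells) or 0 genes were called by edgeR, with 8 to 10 genes at an unadjusted p under 0.05, although the directions held. The calls for Efna3 and Sema3g at day 1 were also lost without either C library of day −2. The interaction calls were alike in this, with 1 or 2 genes called when a C library or a P library of day 1 was left out.

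Genes that act with or beneath these receptors were taken from lists. Calls on listed genes, here and for the other guidance systems, are given from the main fit only. Whether they hold with 1 library left out is not given. The lists of receptor partners, plexin effectors and Eph or ephrin effectors together held 85 genes, of which 79 were tested. Induction raised 10 (12.7%) and lowered 17 (21.5%) in C cells, beside 10.7% and 9.68% of all tested genes, and raised 3 (3.80%) and lowered 19 (24.1%) in P cells, beside 7.65% and 10.4%. At day −2 3 were higher in the knockdown line (3.80%, beside 4.83%) and 3 lower (3.80%, beside 2.15%), and at day 1 1 was higher (1.27%, beside 1.83%) and 4 were lower (5.06%, beside 2.23%). The median log2 ratios were −0.27, −0.38, 0.07 and 0.01, beside −0.01, 0.02, 0.01 and 0.01 over all tested genes. Among receptor partners (14 of 17 tested) 3 fell in C cells (21.4%) and 5 in P cells (35.7%). Among plexin effectors (27 of 29) 4 rose (14.8%) and 6 fell (22.2%) in C cells and 8 fell (29.6%) in P cells, and among Eph and ephrin effectors (38 of 39) 6 rose (15.8%) and 8 fell (21.1%) in C cells and 3 rose (7.89%) and 6 fell (15.8%) in P cells.

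Mical2, an actin-oxidising enzyme of the plexin effector list, fell from 156 ± 1.13 to 17.9 ± 3.73 CPM in C cells and from 210 ± 29.5 to 27.7 ± 0.130 CPM in P cells (SD, n = 2). Its log2 ratios were −3.12 and −2.92 (edgeR adjusted p = 0.000171 and 0.000301). Pak1, a kinase downstream of Rac, and Farp1, a guanine exchange factor linked to class A plexins, fell in both lines as well, with log2 ratios of −2.08 and −2.55 for Pak1 and −1.46 and −1.80 for Farp1. Ngef, the exchange factor through which EphA receptors reach RhoA, fell in both lines from a low level (2.94 CPM in C cells and 0.614 CPM in P cells before induction) and was lower in P cells at day −2 (log2 −2.26, SE 0.40, edgeR adjusted p = 0.025). Ptpn13, a phosphatase that binds ephrin-B ligands, rose in both lines, from 13.2 ± 0.733 to 53.0 ± 1.79 CPM in C cells and from 8.03 ± 0.442 to 18.4 ± 0.584 CPM in P cells (SD, n = 2), and was lower in P cells at day 1 (log2 −1.52, SE 0.15, edgeR adjusted p = 0.00478). Vav3, an exchange factor recruited by Eph receptors, was lower in P cells on both days (log2 −1.50 and −1.25, edgeR adjusted p = 0.0203 and 0.0444). Itga1, a subunit of the integrin that binds Sema7a, was higher in P cells at day −2, at 10.5 ± 4.04 against 1.36 ± 0.106 CPM (SD, n = 2; log2 2.95, SE 0.34, edgeR adjusted p = 0.00546), and Met, which associates with plexin B receptors, was lower (log2 −1.60, SE 0.38, edgeR adjusted p = 0.0609).

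The other guidance systems, netrins, Slits and their receptors, supplied 22 listed genes, of which 15 were tested. On induction 1 rose (6.67%) and 4 fell (26.7%) in C cells, beside 10.7% and 9.68% of all tested genes, and 2 rose (13.3%) and 3 fell (20.0%) in P cells, beside 7.65% and 10.4%. In the knockdown line 4 were higher at day −2 (26.7%, beside 4.83%) and 3 at day 1 (20.0%, beside 1.83%). Slit3, a secreted ligand of Robo receptors, stood at 25.5 ± 0.487 CPM in C cells and 139 ± 38.1 CPM in P cells at day −2 (SD, n = 2), a log2 ratio of 2.45 (SE 0.21, edgeR adjusted p = 0.00242), and rose on induction in both lines, by log2 ratios of 3.44 and 1.45. Its rise was smaller in P cells, with a difference of −1.99 on the log2 scale (SE 0.29, edgeR adjusted p = 0.0326). Unc5c, a netrin receptor, was at 17.0 ± 1.63 CPM in C cells and 69.0 ± 3.42 CPM in P cells at day 1 (SD, n = 2), a log2 ratio of 2.02 (SE 0.24, edgeR adjusted p = 0.0079). Ntng1 and Robo1, a membrane-bound netrin and the Slit receptor, were higher in P cells on both days from means under 1 CPM in C cells. Their log2 ratios were 2.32 and 1.52 at day −2 (edgeR adjusted p = 0.0513 and 0.0842) and 2.67 and 2.01 at day 1 (edgeR adjusted p = 0.0375 and 0.0523).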

How the data were processed

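RNA-seq counts per gene of 8 libraries of 3T3-L1 cells were used, 2 biological replicas in each of 4 conditions. The deposited table, as the authors made it, holds raw counts per NCBI gene number. Per the labels and the study's methods, Ion Torrent reads were cleaned with the FASTX-Toolkit, aligned to mm9 with TopHat2 2.0.9 and counted over refGene models in R, and the submitters' notes also name DESeq. How reads shared by overlapping or similar genes were counted, and whether strand was used, is not given in the sources used here. Symbols came from RefSeq's gene table, in which 23929 of 24013 genes had one and 84 had none.

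Library size was the total count of the table (median 23376100), and 3 counts correspond to 0.107 to 0.160 CPM, the limit that a count of 0 allows. Counting intervals cover counting error only. In R 4.3.3, edgeR 4.0.16 with limma 3.58.1 was run on all 8 libraries (filterByExpr, TMM, quasi-likelihood F test, 13339 genes), with the 4 pairwise contrasts and their interaction, Benjamini-Hochberg adjustment over all tested genes, and a call at adjusted p under 0.1 with a ratio above 2 or below 0.5, thresholds taken from the study (no ratio threshold for the interaction). A prior count of 2 was used for the log2 CPM in the comparisons between replicas, and the fit kept edgeR's default prior. An exact permutation test of 2 against 2 libraries cannot go below p = 0.333 and was not used. The p-values measure the spread between these replica cultures. If the replicas of a line share 1 infection, which is not given, the spread between infections is not covered.

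The members were set by symbol alone and the gene lists from knowledge of the pathways. Both were set with earlier results of these data known, so their counts are descriptions. Members called in at least 1 comparison were given in full, and of the listed pathway and guidance genes up to 3 higher and 3 lower with the lowest p in each comparison could be named. The fit was tested on simulated data. Alternatives were DESeq2 1.42.0, its size factors, library totals, other filters and thresholds, a replicate block, fits of single comparisons and each library left out. Levels per transcript length and promoter motifs had been planned and were not analysed here, since neither transcript lengths nor promoter sequences were at hand, and the table with positions is of another build than mm9.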

Additional observations from a re-analysis of the deposited data

Results flagged for a closer look

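For 5 of the 45 tested genes induction acted differently in the knockdown line by the interaction term of edgeR's fit, which compares the log2 ratio of day 1 to day −2 in P cells with that in C cells. Sema5a rose more in P cells, by a difference of 2.83 (adjusted p = 0.00399, edgeR with Benjamini-Hochberg), and all P libraries were below the C libraries at day −2. Epha7 had a difference of 4.64 (edgeR adjusted p = 0.0388) on at most 5 counts in each library outside P cells at day 1. Efna5 had a difference of 1.27 (edgeR adjusted p = 0.0481) and Sema3f, which fell in C cells, one of 1.21 (edgeR adjusted p = 0.0774). Sema3g rose less in P cells, by a difference of −3.98 (edgeR adjusted p = 0.0923), from 2 to 16 counts per library at day −2. With 2 replicas per condition no single library could be tested as an outlier. The call for Sema5a was kept under every alternative run, while those for Epha7, Efna5, Sema3f and Sema3g ended with a replicate block and without any 1 C library or P library of day 1.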

How the results depend on the processing

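Of 46 calls on these genes (4 comparisons and the interaction), 19 were kept under every alternative that could be run, and none changed direction. DESeq2 and its size factors each kept 46 of 46, library totals 43 and no filter on low counts 45. In induction in C cells 16 genes were called, 9 to 17 with 1 library left out, and in P cells 13, or 12 to 23. Between the lines at day −2, 5 genes were called, 3 in a fit of those conditions alone (all tested genes 931 and 81), 8 without the ratio threshold, and 3 to 15 with 1 library left out. At day 1, 7 were called, 3 where at least 10 counts in every library were required, as Epha3, Epha7, Sema3g and Efna3 were then no longer tested, and 0 to 8 by edgeR with 1 library left out. The interaction called 5, DESeq2 11, a threshold of 0.05 on the adjusted p 3, and leaving out 1 library gave 1 to 25. The lowest counts came without C libraries or P libraries of day 1, and the highest without replica 2 of P cells at day −2. The cause was not tested.

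The labels do not say that replicate numbers mark cultures handled together. Across genes, the difference between replicas was correlated between conditions, and 5 of 6 correlations were negative (−0.355 to 0.209). With 2 replicas per condition there is only 1 such difference in each, so this can neither show nor exclude pairing. With a replicate block 37 of 46 calls were kept, the interaction called 1 gene (Sema5a), and over all tested genes the block called 597 at day −2 and 117 in the interaction, where 931 and 316 were called without it. Over all tested genes, the fit of single comparisons called 1213 for induction in P cells and 899 at day 1 (2406 and 542 with all libraries), dropping the ratio threshold called 4743, 4192, 1513 and 820 in the 4 comparisons, in place of 2723, 2406, 931 and 542, and DESeq2 called 930 in the interaction, in place of 316. With library totals the share of calls that were higher went from 42.4% to 54.5% for induction in P cells, from 69.2% to 55.4% between the lines at day −2 and from 18.4% to 31.6% in the interaction. Depth limits Epha3, Epha7, Sema3g, Sema4d and Efna3, which had groups of under 10 counts per library.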
